A study of Mus musculus with 8 samples.

Results

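The TAM receptors Axl, Mertk and Tyro3, their ligands Gas6 and Pros1, and the phagocytic genes Mfge8, Itgav, Itgb5 and Megf10 were followed as 9 named genes of the 32285 in the deposited tables. They were chosen by name. Single nuclei came from C57BL6/J mice at 6 months of age, from 1 brain hemisphere whose cerebellum and olfactory bulb had been taken off. The genotypes were WT, Cnp-/-, 5xFAD and Cnp-/-;5xFAD, with 2 libraries each, 8 in all. Cnp-/- mice lack a myelin enzyme of oligodendrocytes throughout the body, and 5xFAD mice carry mutant human transgenes under the neuronal Thy1 promoter and deposit amyloid. The combined mutant carries both. The question was in which cell types the receptors and ligands were found, and whether they changed with the microglial state or the genotype.

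Phagocytes recognize dying cells and membrane debris by phosphatidylserine on the outer face of the membrane. The vitamin K-dependent proteins Gas6 and Pros1 (protein S) bridge this lipid to the TAM receptor tyrosine kinases. Gas6 binds all members of the receptor family, while Pros1 acts through Mertk and Tyro3. Mfge8 (lactadherin) is another bridge, and it ends on integrins that contain the alpha-v chain Itgav, paired with a beta chain such as Itgb5. Megf10 is an engulfment receptor known from synapse removal by astrocytes. In the brain, Mertk is known as a receptor of resting microglia and astrocytes, and Axl as a receptor that activated microglia gain. Disease-associated microglia (DAM) are an activated state around plaques and damaged myelin.

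The starts of Axl and Mertk are shown because they were the receptors whose levels moved in DAM. Each line gives the 250 bases before the RefSeq transcription start in GRCm38.p6, 5′ to 3′ on the gene's own strand, with GC boxes (GGGCGG, or CCGCCC on the other strand) in capitals. Axl lies on the minus strand, with this stretch at chr7:25788734-25788983, and Mertk on the plus strand, at chr2:128698665-128698914.
Axl: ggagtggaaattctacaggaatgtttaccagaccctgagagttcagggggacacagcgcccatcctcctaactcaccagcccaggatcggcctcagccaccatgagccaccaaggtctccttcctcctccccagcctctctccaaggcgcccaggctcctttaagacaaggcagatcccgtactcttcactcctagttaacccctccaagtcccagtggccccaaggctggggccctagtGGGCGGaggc
Mertk: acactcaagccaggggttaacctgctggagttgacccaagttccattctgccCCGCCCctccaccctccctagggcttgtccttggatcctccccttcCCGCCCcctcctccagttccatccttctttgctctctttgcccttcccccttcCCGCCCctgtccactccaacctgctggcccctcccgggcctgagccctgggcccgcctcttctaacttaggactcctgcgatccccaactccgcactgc

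The Axl stretch held 1 GC box and the Mertk stretch 3. A GC box was in 32.7% of the 32851 promoters of this length in the RefSeq table. Among the 8 genes matched in that table, Tyro3 and Itgb5 held 3 each, Gas6 and Mfge8 4 each, Pros1 5 and Itgav 0. The letters GAGGAA, a core of sites of the myeloid factor PU.1, were found on either strand in Axl and Mfge8 once and in Itgav at 2 places, and in 23.3% of all promoters. Neither the AP-1 letters TGACTCA and TGAGTCA nor the E-box CACGTG was in any of the 8 stretches, against 4.46% and 6.02% of all promoters. These matches describe letters and are not binding sites.

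In the GENCODE annotation of GRCm38 all 9 genes are protein-coding. The receptors lie at chr7:25757273-25788705 (Axl), chr2:128698956-128802894 (Mertk) and chr2:119797733-119818104 (Tyro3). The ligands lie at chr8:13465374-13494490 (Gas6) and chr16:62854307-62929346 (Pros1). Mfge8 lies at chr7:79133768-79149060, Itgav at chr2:83724397-83806916, Itgb5 at chr16:33829665-33949338 and Megf10 on chromosome 18. Mertk, Gas6 and Itgav each overlap a counted gene on the opposite strand, namely Gm14011, Tmem255b and Gm13684, and whether counting used the strand is not given in the sources used here.

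The tables held 61949 nuclei, with 6801 to 8824 nuclei and 68905044 to 82399061 UMIs (unique transcripts counted) per library. Levels are given as counts per 1000000 UMIs (CPM) after summing the nuclei of 1 library and 1 cell type, for sums of at least 20 nuclei. Cnp in mature oligodendrocytes was at 219 to 321 CPM in the 4 libraries with an intact gene and at 23.1 to 32.8 CPM in the 4 Cnp-/- and Cnp-/-;5xFAD libraries. Of the barcodes, 454 occurred in more than 1 library, and 39 nuclei of the microglia table carried such a barcode. The microglia table held 2291 nuclei in 5 subpopulations that the authors annotated, and another 181 nuclei annotated as microglia among all nuclei were not in it. The subpopulations were 982 homeostatic microglia, 586 amyloid-DAM, 248 myelin-DAM, 270 MyTE and 205 macrophages. The study's reporting form describes replicates of its single-cell work as pools of animals. Its methods state pooling only for another dataset of the study, and the labels name no animals. Whether these libraries are pools is therefore not settled, and the p-values below measure spread over libraries. Between genotypes this is the spread between 2 libraries per genotype. Between subpopulations it is the spread of the differences within libraries.

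Mertk was highest in microglia and astrocytes, Axl in pericytes, microglia and astrocytes, and Tyro3 in mature oligodendrocytes. Because cell types were clustered on the same counts, these levels are a description with no test. Mertk was at 1441 to 1956 CPM in microglia, with a median of 1692, and at 983 to 1681 CPM in astrocytes, with a median of 1191. Those ranges overlapped. The nuclei annotated as microglia here include macrophages and the 181 nuclei outside the microglia table. Microglia of that table without macrophages were at 1809 to 2729 CPM of Mertk, above every astrocyte library. No other cell type reached the range of microglia or of astrocytes. Newly formed oligodendrocytes followed at 406 ± 107 CPM (SD, n = 8), pericytes at 277 ± 44.8 CPM (SD, n = 7), endothelial cells at 174 ± 30.8 CPM (SD, n = 8) and precursors at 139 ± 36.2 CPM (SD, n = 8). Neurons (26.2 ± 8.42 CPM, SD, n = 8) and mature oligodendrocytes (5.68 ± 3.49 CPM, SD, n = 8) were lowest and overlapped with no neighbour in the order. The summed astrocyte markers of newly formed oligodendrocytes were at 1490 to 3884 CPM, against 206 to 345 CPM in mature oligodendrocytes, and their part in the Mertk level was not tested.

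Axl was highest in pericytes, at 22.9 to 231 CPM, on 1 to 15 UMIs per library. Microglia (5.82 to 147 CPM) and astrocytes (54.2 to 69.7 CPM) overlapped with them. Astrocytes were the steadiest source, and their lowest library was above the highest of endothelial cells (30.04 to 45.1 CPM). Neurons were at 0.818 to 2.23 CPM and mature oligodendrocytes at 0 to 2.44 CPM. Tyro3 showed the opposite order. It was at 153 to 216 CPM in mature oligodendrocytes, with a median of 169, and at 52.1 to 62.3 CPM in neurons, and these ranges did not overlap. Astrocytes were at 0.935 to 8.63 CPM, and no pericyte held a UMI of it. Neurons held a mean of 92.6% of all UMIs of a library, and with them 93.9% ± 1.69 (SD, n = 8) of all Tyro3 UMIs. They held only 34.7% ± 10.9 of those of Mertk and 31.6% ± 8.55 of those of Axl (SD, n = 8).

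Pros1 was highest in microglia, while Gas6 was highest in endothelial cells and in nuclei annotated as microglia, which here include macrophages. Pros1 was at 213 to 237 CPM in microglia, a narrow range over all 8 libraries, above its level in every other cell type. Endothelial cells came next, at 78.3 to 107 CPM, and all remaining types had means of at most 45.7 CPM. Gas6 was at 94.5 to 138 CPM in endothelial cells and at 17.3 to 221 CPM in nuclei annotated as microglia, which overlapped. Of the 427 Gas6 UMIs of the latter, 134 lay in macrophages and 52 in the 181 nuclei outside the microglia table. Microglia of that table without macrophages were at 68.8 ± 30.8 CPM (SD, n = 8). Precursors (40.3 to 92.2 CPM), astrocytes (48.8 to 68.4 CPM) and neurons (42.6 to 54.1 CPM) followed with overlapping ranges, and mature oligodendrocytes held 4 Gas6 UMIs in all. By sheer number of UMIs neurons held 91.0% ± 2.02 of Gas6 and 68.4% ± 6.59 of Pros1 (SD, n = 8), against 92.6% of all UMIs.

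Mfge8, the bridge to integrins, was an astrocyte and vascular gene in these nuclei. Astrocytes were at 126 to 244 CPM, pericytes at 19.2 to 187 CPM and endothelial cells at 62.6 to 177 CPM. The summed pericyte markers were at 3218 to 5565 CPM in endothelial cells, against 4023 to 7491 CPM in pericytes. Their part in the endothelial levels of Gas6, Pros1 and Mfge8 was not tested. Nuclei annotated as microglia among all nuclei were at 0 to 24.9 CPM, but of those 44 UMIs 42 lay in the 181 nuclei outside the microglia table. That table itself held 2 Mfge8 UMIs. Itgav was present everywhere, from 299.5 ± 43.5 CPM in microglia (SD, n = 8) down to 74.3 ± 18.5 CPM in neurons (SD, n = 8), and each type overlapped with its neighbour in the order. Microglia of the microglia table without macrophages were at 287 to 467 CPM of Itgav, above every precursor library. The partner of Itgav, Itgb5, was at 632 to 780 CPM in microglia, clear of pericytes, the next type, at 138 to 287 CPM. Precursors were lowest for Itgb5, at 1.55 to 8.38 CPM. Megf10 was at 260 to 356 CPM in mature oligodendrocytes and at 195 to 266 CPM in astrocytes, which just met, and pericytes held 1 UMI of it.

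**Figure D1:**
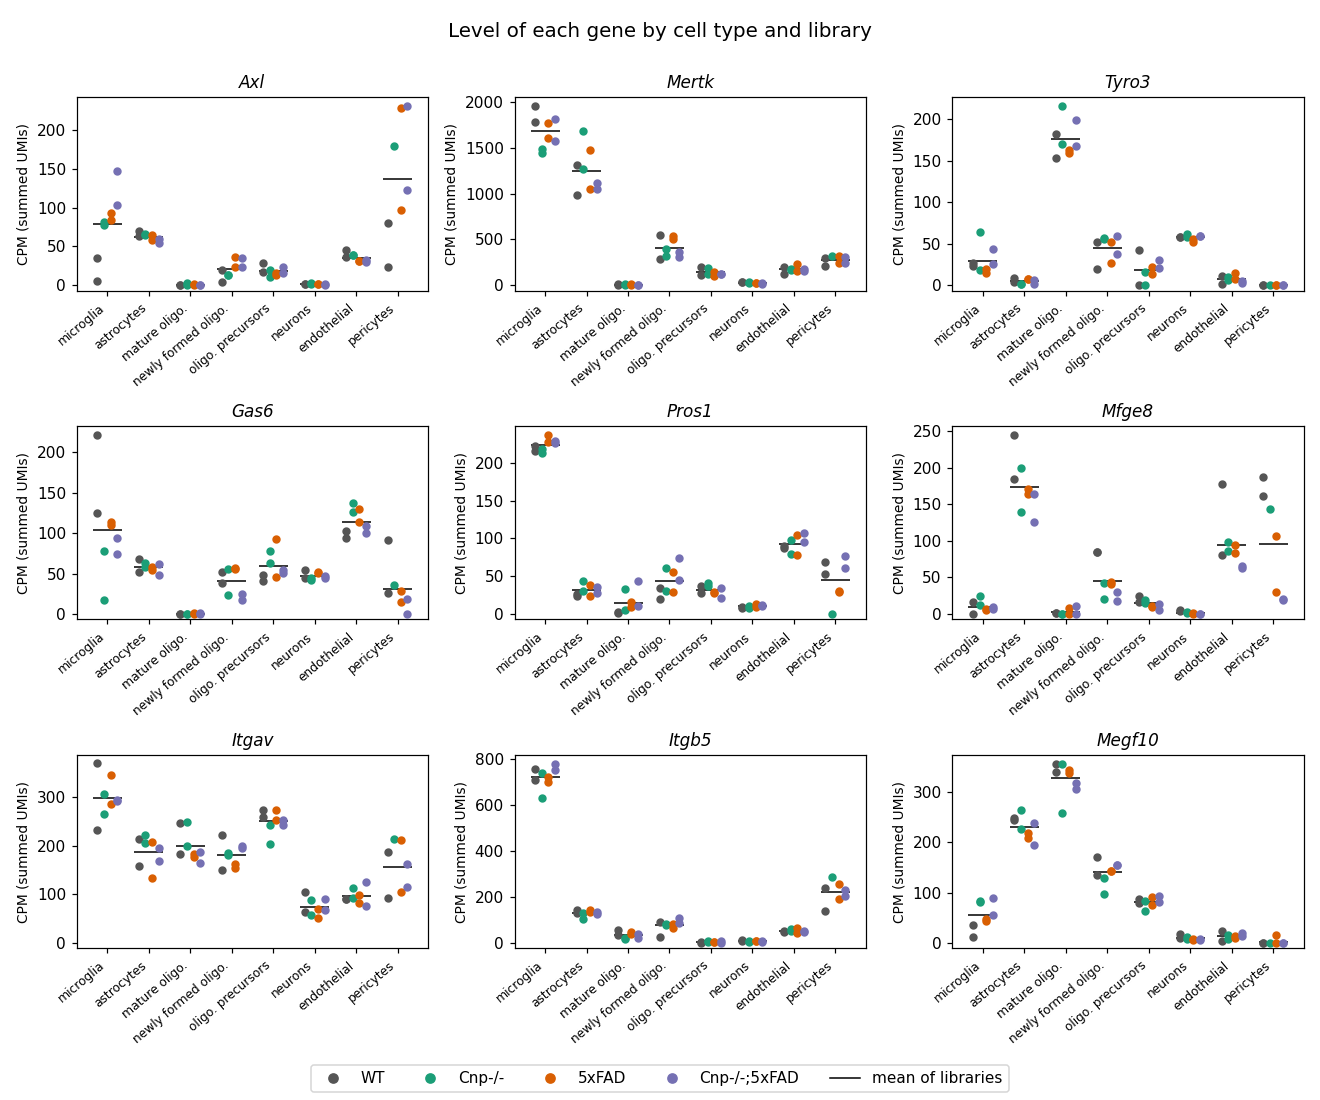
Each panel plots 1 gene: the y axis is its level in CPM of summed UMIs, on its own scale, and the x axis the cell type. Points are libraries coloured by genotype and black lines their means. Mertk, Pros1, Itgav and Itgb5 had their highest mean in microglia, Mfge8 in astrocytes, Gas6 in endothelial cells, Axl in pericytes, and Tyro3 and Megf10 in mature oligodendrocytes.

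The genes with the most similar profiles were found by Pearson's r of log2(CPM + 1) over 63 profiles, which are 8 cell types in 8 libraries and so share libraries and depth. The comparison took in 8192 genes, each with a mean of at least 50 CPM in 1 cell type or more. Mertk was most like Smo (r = 0.930), Suclg2 and Tmem164, and Axl most like Itpkb (r = 0.896), Pitpnc1 and Ttc28. Mertk and Axl had an r of 0.837 with each other and of -0.51 and -0.71 with Tyro3. Tyro3 was most like Tppp (r = 0.933), Kcna1 and Stmn4. Gas6 was most like Chic2 (r = 0.887), March3 and Vps37b, and Pros1 most like Elk3 (r = 0.850), Cep68 and Il15. Mfge8 was nearest to Sparcl1 (r = 0.895), Atp1b2 and Nhsl1, Itgav to Tns3 (r = 0.827), Lrmda and Tsc22d4, and Itgb5 to Epb41l2 (r = 0.883), Ccnd3 and Arid1a. The closest match of all was Megf10 with the glial adhesion gene Hepacam (r = 0.989), followed by Nkx2-2os and Psat1.

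Between microglial states the TAM receptors moved in opposite directions. Axl rose in both DAM subpopulations, Mertk fell in both, and Tyro3 had no UMI in homeostatic microglia, amyloid-DAM or myelin-DAM. Subpopulations were compared within libraries, with UMIs summed per library and subpopulation and the library as a block, in edgeR (quasi-likelihood test), and p-values were adjusted after Benjamini-Hochberg over all 4960 genes tested. The 27 profiles of at least 20 nuclei entered. Subpopulations were clustered by the authors on the same counts, so these p-values overstate the evidence. Of the 9 genes 8 passed the filter on low counts, and Mfge8 did not.

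In homeostatic microglia, Axl was at 9.69 and 0 CPM in WT, 40.5 and 37.2 CPM in Cnp-/-, 20.2 and 40.6 CPM in 5xFAD, and 79.3 and 47.3 CPM in Cnp-/-;5xFAD. In amyloid-DAM it was at 203 and 134 CPM in 5xFAD and at 203 and 207 CPM in Cnp-/-;5xFAD. In myelin-DAM the Cnp-/- libraries had 234 and 212 CPM and the Cnp-/-;5xFAD libraries 373 and 319 CPM. Every DAM profile was above every homeostatic profile, and the rise was seen in 4 of 4 libraries for each DAM state. The log2 fold change of Axl against homeostatic microglia was 2.05 ± 0.288 (SE) in amyloid-DAM and 2.66 ± 0.319 (SE) in myelin-DAM. Homeostatic profiles held 43 Axl UMIs, amyloid-DAM profiles 160 and myelin-DAM profiles 88. Axl thus passed the filter on low counts mainly through the DAM states, where it was high, so no p is given for these differences. Myelin-DAM was above amyloid-DAM in all libraries, by 0.61 ± 0.310 (SE) on the log2 scale, which did not pass the test (adjusted p = 0.648, edgeR). The 2 DAM states share only the 2 Cnp-/-;5xFAD libraries.

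The share of nuclei with an Axl UMI gave the same order. It was 3.87% of homeostatic nuclei (38 of 982, 95% Wilson interval 2.83 to 5.27), 22.4% of amyloid-DAM (131 of 586, 19.2 to 25.9) and 28.2% of myelin-DAM nuclei (70 of 248, 23.0 to 34.1). These intervals cover counting error only. Median depths were 1159.5, 1303 and 1208 UMIs. With each nucleus thinned to 757 UMIs, which left out 120 homeostatic, 59 amyloid-DAM and 39 myelin-DAM nuclei, the shares were 2.55%, 11.8% and 19.1%. Mature oligodendrocytes, which should lack Axl, had a UMI in 0.0891% of nuclei at a median of 1515 UMIs.

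Mertk, the receptor of resting microglia, was lower in both DAM states. It was at 2407 to 3019 CPM in homeostatic microglia over 8 libraries, with a median of 2812. In amyloid-DAM it was at 2301 and 1847 CPM in 5xFAD and at 2325 and 1941 CPM in Cnp-/-;5xFAD. In myelin-DAM the Cnp-/- libraries had 1830 and 1782 CPM and the Cnp-/-;5xFAD libraries 1802 and 1842 CPM. The 3 ranges did not overlap. Mertk fell by 0.39 ± 0.100 (SE) on the log2 scale in amyloid-DAM (adjusted p = 0.00530, edgeR) and by 0.70 ± 0.112 (SE) in myelin-DAM (adjusted p = 9.71e-06, edgeR), lower in 4 of 4 libraries each. The amyloid-DAM call was lost without either Cnp-/-;5xFAD library, with adjusted p of 0.0806 without replicate 1 and 0.0551 without replicate 2. The direct difference between the DAM states, -0.30 ± 0.127 (SE), did not pass the test (adjusted p = 0.478, edgeR).

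The microglia markers were lower along with Mertk, with 5 of 5 called lower in each DAM state. Of 5 tested DAM markers 4 were called higher in each, and Trem2 was not. The subpopulations were clustered on these same counts, so the marker calls are a description. Over all genes 5.06% were called lower and 4.78% higher in amyloid-DAM, and 4.6% and 4.15% in myelin-DAM. The summed level of 5 microglia markers (Cx3cr1, P2ry12, Csf1r, Tmem119 and Inpp5d) was 5922 to 7257 CPM in homeostatic microglia, 4110 to 4701 CPM in amyloid-DAM and 3366 to 4606 CPM in myelin-DAM. Per 1000 UMIs of these markers Mertk had 430.4 ± 42.6 UMIs in homeostatic microglia (SD, n = 8), 483 ± 59.7 in amyloid-DAM and 448 ± 61.7 in myelin-DAM (SD, n = 4 each). The ranges of these ratios overlapped between the states. Axl had 5.40 ± 4.09 UMIs per 1000 (SD, n = 8) in homeostatic microglia and 42.9 ± 7.77 and 71.5 ± 27.5 in the DAM states (SD, n = 4 each). Because the markers themselves fell in DAM, this ratio raises every gene there. It describes the genes relative to the markers and is no separate test of a rise or fall.

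**Figure D2:**
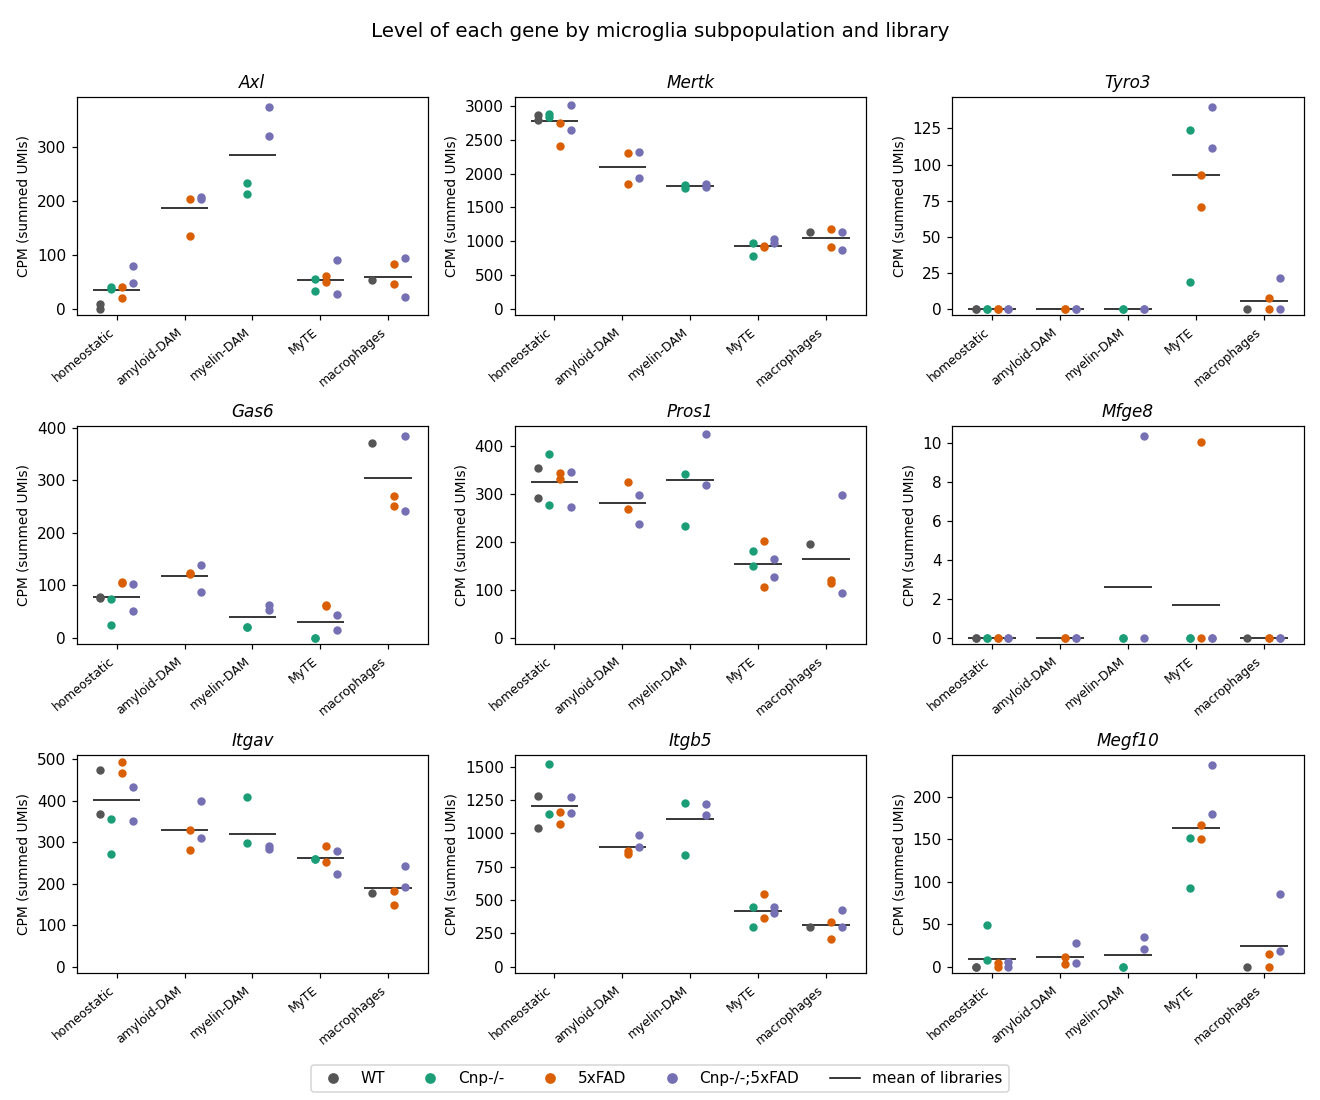
Each panel plots 1 gene by microglial subpopulation (x axis), as its level in CPM of summed UMIs (y axis, own scale). Points are libraries with at least 20 nuclei of that subpopulation, coloured by genotype, and black lines are means. Axl was highest in myelin-DAM and amyloid-DAM, Mertk was lower in DAM than in homeostatic microglia and lowest in MyTE and macrophages, Tyro3 and Megf10 stood out in MyTE, and Gas6 in macrophages.

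Of the other genes in DAM, only Itgb5 passed the test, and in amyloid-DAM only. It was at 1037 to 1523 CPM in homeostatic microglia, with a median of 1157, and at 867, 848, 901 and 988 CPM in amyloid-DAM, with no overlap. It fell by 0.43 ± 0.122 (SE) on the log2 scale (adjusted p = 0.0136, edgeR), a call lost without 5xFAD replicate 1 (adjusted p = 0.0621), without Cnp-/-;5xFAD replicate 1 (0.139) or replicate 2 (0.0690). In myelin-DAM it was at 837 to 1230 CPM and its log2 difference was -0.25 ± 0.137 (SE, adjusted p = 0.371, edgeR). Its partner chain Itgav was at 272 to 493 CPM in homeostatic microglia, 282 to 399 CPM in amyloid-DAM and 283 to 409 CPM in myelin-DAM, with log2 differences of -0.35 in both (adjusted p = 0.168 and 0.373, edgeR). The first was called when homeostatic and DAM profiles alone were fitted (adjusted p = 0.0438). Relative to the microglia markers, which fell themselves, Itgb5 was not lower. It had 187 ± 29.3 UMIs per 1000 in homeostatic microglia (SD, n = 8), 207 ± 17.9 in amyloid-DAM and 273 ± 55.1 in myelin-DAM (SD, n = 4 each).

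The ligands did not pass the test in either DAM state. Pros1 was at 272 to 384 CPM in homeostatic microglia, 237 to 325 CPM in amyloid-DAM and 233 to 425 CPM in myelin-DAM, and these overlapped, with log2 differences from homeostatic microglia of -0.20 and 0.05. Gas6 was at 24.3 to 105 CPM in homeostatic microglia and at 121, 123, 87.2 and 138 CPM in amyloid-DAM. Myelin-DAM held 12 Gas6 UMIs in all in its profiles, at 19.5 and 21.2 CPM in Cnp-/- and 62.1 and 53.1 CPM in Cnp-/-;5xFAD, below every amyloid-DAM profile. Its log2 differences from homeostatic microglia were 0.34 ± 0.284 and -0.52 ± 0.486 (SE). The log2 difference of Gas6 between the DAM states was -0.85 ± 0.490 (SE, adjusted p = 0.733, edgeR). Megf10 had at most 4 UMIs in any homeostatic or DAM profile.

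The counts per comparison were read against all genes. Amyloid-DAM against homeostatic microglia called 1 of the 8 genes higher and 2 lower, where 9.84% of all genes tested were called, 4.78% higher and 5.06% lower. Myelin-DAM called 1 higher and 1 lower, against a background of 8.75%, with 4.15% higher and 4.6% lower. The gene called higher was Axl in both, which passed the filter mainly through DAM, so its calls are a description. Between the DAM states no gene of the 8 was called, by edgeR or by DESeq2, where the background was 0.988%. Tyro3, with no UMI in either state, could not be called, and Megf10 had only 8 UMIs in amyloid-DAM and 4 in myelin-DAM. An unadjusted p under 0.05 was found for 1 of the 8, against 7.9% of all genes. Leaving out Tyro3, which had no UMI in these states, the median log2 difference of the 7 others was -0.20 in amyloid-DAM and -0.25 in myelin-DAM, where the median over all genes was 0.03 and -0.03.

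MyTE nuclei carried Tyro3 and Megf10 along with oligodendrocyte transcripts. Their 5 oligodendrocyte markers (Mbp, Mog, Mag, Mobp and St18) summed to 6868 to 9840.2 CPM, against 0 to 186 CPM in homeostatic microglia, while their microglia markers summed to 2083 to 2402 CPM. Tyro3 was at 124 and 18.6 CPM in Cnp-/-, 92.6 and 70.3 CPM in 5xFAD, and 111 and 140 CPM in Cnp-/-;5xFAD. A Tyro3 UMI was found in 0 of 982 homeostatic nuclei, where 3 counts, the floor used for a count of 0, would be 0.305%. In summed counts, Tyro3 was at least 42.9-fold higher in MyTE, taking 3 counts over the homeostatic profiles as the floor. Of the 94 Tyro3 UMIs in the microglia table, MyTE held 92.

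Megf10 was at 152 and 93.0 CPM in Cnp-/-, 167 and 151 CPM in 5xFAD, and 180 and 237 CPM in Cnp-/-;5xFAD. That was above all homeostatic profiles (0 to 49.5 CPM), with a fitted log2 difference of 4.59 ± 0.528 (SE). Tyro3 and Megf10 had counts mainly in MyTE, where they were high, so no p is given for them in this comparison. MyTE held 146 of the 174 Megf10 UMIs in the table. Set against the oligodendrocyte markers, MyTE had 20.9 ± 7.04 Megf10 and 11.8 ± 5.54 Tyro3 UMIs per 1000 marker UMIs (SD, n = 6). Mature oligodendrocytes had 23.2 ± 2.84 and 12.5 ± 1.37 (SD, n = 8), which differed from MyTE by less than the spread between libraries. Newly formed oligodendrocytes had 47.0 ± 25.0 and 13.1 ± 3.55 (SD, n = 8). The part of oligodendrocyte transcripts in the MyTE levels of both genes was not tested.

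Mertk, Itgb5, Pros1 and Gas6 were lower in MyTE. Mertk was at 781 to 1027 CPM and fell by 1.22 ± 0.0953 (SE) on the log2 scale (adjusted p = 5.73e-15, edgeR). Itgb5 fell by 1.18 ± 0.122 (adjusted p = 3.26e-11) and Pros1 by 0.73 ± 0.187 (adjusted p = 0.00108, edgeR), all without overlap and in 6 of 6 libraries. Gas6, at 0 to 61.7 CPM, fell by 0.87 ± 0.353 (adjusted p = 0.0397, edgeR), a call lost without either Cnp-/- library (0.0913 and 0.0697) or without Cnp-/-;5xFAD replicate 2 (0.208). Axl, at 27.9 to 90.0 CPM, had a log2 difference of 0.63 ± 0.341 (adjusted p = 0.131), and Itgav one of -0.34 ± 0.149 (adjusted p = 0.0531, edgeR). These falls were not seen per 1000 UMIs of the microglia markers, which were lower in MyTE as well. By that measure MyTE had 427 ± 43.2 Mertk, 191 ± 41.1 Itgb5 and 70.9 ± 18.2 Pros1 UMIs (SD, n = 6), against 430.4 ± 42.6, 187 ± 29.3 and 50.4 ± 7.93 in homeostatic microglia (SD, n = 8). Itgav, at 119 ± 14.0 against 62.2 ± 12.1, was higher in every MyTE profile than in any homeostatic one. Of the 8 genes tested 4 were called lower, where 20.5% of all genes were called lower and 47.1% in either direction.

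Macrophages were the subpopulation with the most Gas6. It was at 371 CPM in WT, 269 and 252 CPM in 5xFAD, and 242 and 384 CPM in Cnp-/-;5xFAD, above every other profile of at least 20 nuclei. Its log2 difference from homeostatic microglia was 1.67 ± 0.274 (SE, adjusted p = 3.72e-06, edgeR), higher in 5 of 5 libraries. A Gas6 UMI was found in 46.8% of macrophage nuclei (96 of 205, 40.1 to 53.7) and in 9.37% of homeostatic nuclei (92 of 982, 7.70 to 11.4). At 757 UMIs per nucleus these were 21.8% and 6.03%. Mature oligodendrocytes had a Gas6 UMI in 0.0713% of nuclei. Mertk (874 to 1174 CPM), Itgb5 (206 to 426 CPM), Itgav (149 to 242 CPM) and Pros1 (93.1 to 298 CPM) fell in macrophages, by 1.40, 1.89, 1.24 and 1.06 on the log2 scale (adjusted p at most 0.000487, edgeR). The microglia markers were lower there too, at 2608 to 3261 CPM. Per 1000 of their UMIs, Itgb5 (104 ± 20.9 against 187 ± 29.3) and Mertk (350 ± 52.9 against 430.4 ± 42.6) were lower on average than in homeostatic microglia. Itgav (62.8 ± 9.44 against 62.2 ± 12.1) and Pros1 (53.8 ± 24.2 against 50.4 ± 7.93) were not (SD, n = 5 and 8). Axl (0.70 ± 0.414, adjusted p = 0.221) and Megf10 (1.55 ± 0.893, adjusted p = 0.208, edgeR) did not pass, and Tyro3 had 2 UMIs. Thus 5 of the 8 genes were called, where 28.6% of all genes were, and the median log2 difference without Tyro3 was -1.06 against 0.03 over all genes. Macrophage markers (Mrc1, Cd163, F13a1, Lyve1, Pf4 and Cbr2) summed to 7138 to 8526 CPM in macrophages and to at most 32.4 CPM in homeostatic microglia.

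**Figure D3:**
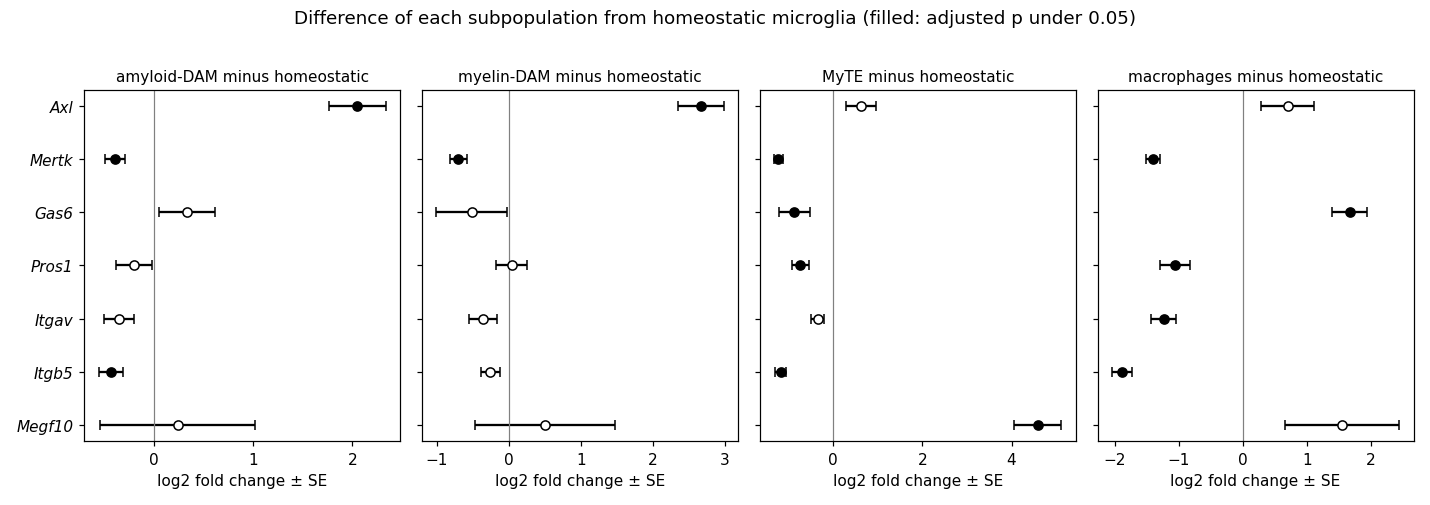
Each panel gives the log2 fold change (x axis) of 7 genes (y axis) between 1 subpopulation and homeostatic microglia, with SE bars; the x scales differ, and filled points had an adjusted p under 0.05. Axl rose by 2.05 and 2.66 in the DAM states, where Mertk fell by 0.39 and 0.70, Megf10 was 4.59 higher in MyTE, and Gas6 rose by 1.67 in macrophages. Tyro3 is left out because it had no UMI in homeostatic microglia. The filled points of Axl in DAM and of Megf10 in MyTE are a description only. Both genes passed the filter on low counts mainly through the subpopulations where they were high.

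**Figure D4:**
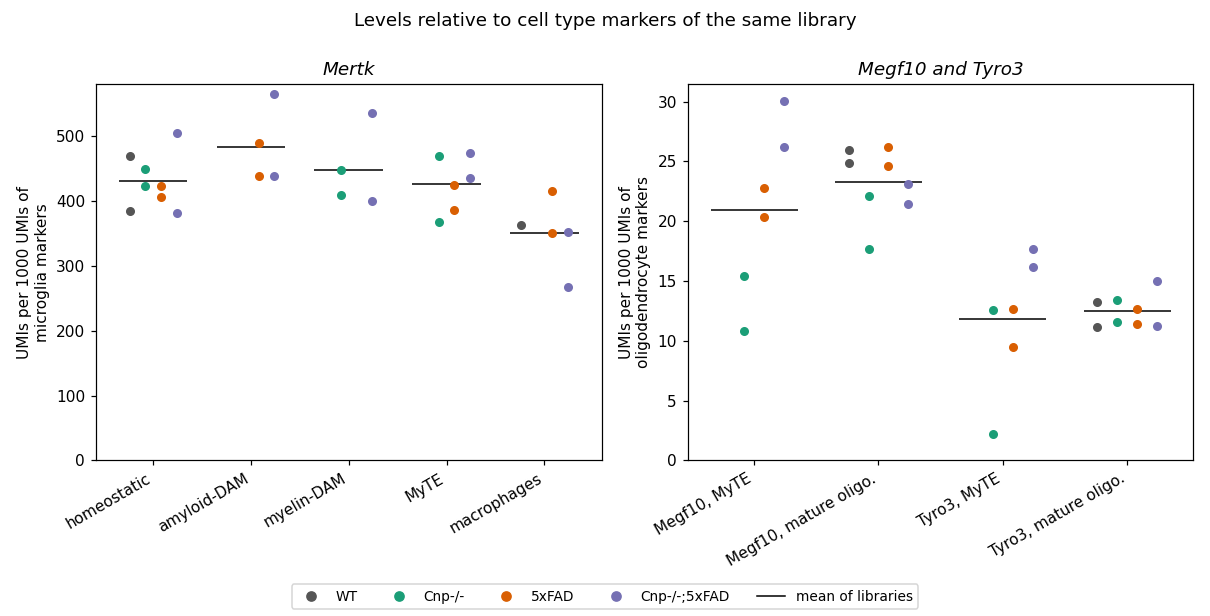
The left panel plots Mertk UMIs per 1000 UMIs of 5 microglia markers (y axis) by subpopulation, the right panel Megf10 and Tyro3 UMIs per 1000 UMIs of 5 oligodendrocyte markers in MyTE and mature oligodendrocytes. Points are libraries coloured by genotype and black lines their means. The Mertk means lay between 350.1 and 483, and the MyTE and oligodendrocyte means were 20.9 and 23.2 for Megf10 and 11.8 and 12.5 for Tyro3.

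Other engulfment genes of the same pathway were taken as 8 lists with 80 genes in the tables, of which 41 could be tested in microglia. A gene found mainly in 1 subpopulation can pass the filter on low counts through it alone, so the numbers of higher genes are a description. In amyloid-DAM 2 rose and 6 fell, 19.5% of those tested against 9.84% of all genes, with a median log2 difference of -0.09. The largest differences were in Cd300lf, a lipid-binding receptor (3.41 ± 0.733), the scavenger receptor Stab1 (-1.90 ± 0.229, adjusted p = 2.62e-08, edgeR), and Itgb3, another beta partner of alpha-v (1.14 ± 0.346). Cd300lf had 7 UMIs in homeostatic profiles, 78 in amyloid-DAM and 18 in myelin-DAM. Itgb3 had 66 of 1233347 UMIs in homeostatic profiles and 90 of 845192 in amyloid-DAM. Relative to depth Itgb3 was also found more in amyloid-DAM and may have passed the filter through it. No p is given for either gene. In myelin-DAM 1 rose and 5 fell, a share of 14.6% against 8.75% of all genes. Cd300lf was 3.81 ± 0.886 higher on the log2 scale, while Stab1 fell by 1.15 ± 0.282 (adjusted p = 0.00387) and Elmo1, an adaptor in Rac activation, by 1.10 ± 0.115 (adjusted p = 8.48e-10, edgeR).

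Between the DAM states 1 pathway gene of 41 passed, where 0.988% of all genes did. It was the cholesterol exporter Abca1, at 0.82 ± 0.170 in favour of myelin-DAM. The study had already reported Abca1 as higher in myelin-DAM from these same nuclei, so this is no independent result and no p is given. In MyTE 21 fell and 11 were higher, where 20.5% of all genes fell and 26.6% were higher, the largest differences being those of the integrin-binding bridge Edil3 (7.09 ± 0.256), the focal adhesion kinase Ptk2 (6.07 ± 0.309) and Dock5 (5.13 ± 0.463). In macrophages 12 fell and 11 were higher, where 13.7% of all genes fell and 14.9% were higher, the largest differences being those of the scavenger receptors Cd36 and Msr1 (5.10 ± 0.627) and of Vav3, an exchange factor for Rac (4.56 ± 0.319). Cd36 had no UMI in homeostatic microglia and 58 in macrophages, at least 71.2-fold more against a floor of 3 counts over the group. The same shares are the background of the single lists. Of the 4 other bridging and opsonin genes tested, 0 passed in either DAM state, 3 fell and 1 was higher in MyTE, and all 4 were higher in macrophages. Of 15 genes of engulfment signalling, 2 fell in amyloid-DAM, 1 fell in myelin-DAM, 7 fell and 4 were higher in MyTE, and 3 fell and 3 were higher in macrophages. Of 8 other engulfment receptors, 2 fell and 1 was higher in each DAM state, 5 fell and 1 was higher in MyTE, and 3 fell and 3 were higher in macrophages. Of 7 genes that flip phosphatidylserine between the membrane faces, 1 fell in each DAM state, 3 fell and 4 were higher in MyTE, and 2 fell in macrophages. The 4 remaining lists had at most 3 tested genes each. Among these, 1 of the 3 genes of TAM shedding and feedback fell in each DAM state, 2 fell in MyTE, and 2 fell and 1 was higher in macrophages. Of 2 other beta chains of alpha-v, 1 rose in amyloid-DAM and 1 fell in macrophages. The tested gene of the vitamin K cycle, which matures Gas6 and Pros1, was called higher in MyTE and in no other subpopulation, and the tested don't-eat-me signal fell in MyTE and macrophages.

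Between genotypes none of the 9 genes passed the test in any cell type where it was tested. Each cell type was fitted by itself over the 8 libraries, for Cnp loss, for 5xFAD and for their interaction with the same edgeR test and adjustment. In the 24 comparisons the genes were tested 171 times, with 0 calls, 17 unadjusted p under 0.05 and 4 calls by DESeq2. Over all genes in these comparisons, 0.107% were called by edgeR, 6.76% had an unadjusted p under 0.05 and 0.785% were called by DESeq2. In microglia without macrophages 1.59% of all genes were called for Cnp loss, 0.391% for 5xFAD and 0.0489% for the interaction. In homeostatic microglia these were 0.11%, 0.0657% and 0.0%. Cnp loss called 0.765% of genes in mature oligodendrocytes, 0.0185% in neurons and 0.0425% in endothelial cells, and 0.0% in astrocytes, precursors and pericytes, while 5xFAD and the interaction called 0.0% in these 6 types. Pericytes of Cnp-/- replicate 2 were left out of the fit because they were too few.

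Axl in microglia came nearest. Over all microglia of the microglia table it was at 20.5 and 0 CPM in WT, 89.6 and 101 CPM in Cnp-/-, 101 and 82.7 CPM in 5xFAD, and 165 and 120 CPM in Cnp-/-;5xFAD. Both WT libraries were below all others, on 5 and 0 UMIs. The log2 fold change was 1.68 ± 0.369 (SE) with Cnp loss (adjusted p = 0.0592) and 1.61 ± 0.369 (SE) with 5xFAD (adjusted p = 0.113, edgeR), with an interaction of -2.07 ± 0.756 (SE, adjusted p = 0.454). Over the alternatives these log2 differences ran from 1.13 to 4.51 and from 1.23 to 4.46, highest without WT replicate 1, which left WT with no Axl UMI. DESeq2 called both main effects (adjusted p = 0.0164 and 0.0397), where it called 2.9% and 1.54% of all genes, as did edgeR without a filter on low counts (0.00213 and 0.00275). WT had no DAM profile of 20 nuclei, so the mix of states moved with the genotype. Within homeostatic microglia the WT libraries were also lowest, at 9.69 and 0 CPM, but on 2 and 0 UMIs, and Axl did not pass the filter there. Without the filter its log2 difference with Cnp loss was 1.74 ± 0.877 (SE, adjusted p = 1.00, edgeR).

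Mertk over all microglia was at 2524 and 2729 CPM in WT and at 1809 to 2134 CPM in the 6 other libraries. Its log2 differences were -0.22 ± 0.0866 (SE) with Cnp loss and -0.16 ± 0.0865 (SE) with 5xFAD (adjusted p = 0.308 and 0.591, edgeR). Within homeostatic microglia these were 0.08 ± 0.0842 and -0.07 ± 0.0842 (SE). Gas6 was lower with Cnp loss over all microglia, with 14.1 and 37.1 CPM in Cnp-/- against 81.9 and 68.0 CPM in WT, but the log2 difference of -1.10 ± 0.336 (SE) did not pass (adjusted p = 0.166, edgeR). In 5xFAD and Cnp-/-;5xFAD Gas6 was at 101 and 104, and at 62.6 and 81.2 CPM, and its log2 difference with 5xFAD was 1.03 ± 0.334 (SE, adjusted p = 0.293, edgeR). Over the alternatives this 5xFAD difference ran from 0.17 to 1.37. The mean of Gas6 was 76.8 CPM in homeostatic microglia, 117 in amyloid-DAM, 39.0 in myelin-DAM and 29.7 in MyTE. The mix of these states moved with the genotype, and its part in the Gas6 differences was not tested. Itgav, Itgb5, Pros1 and Tyro3 had log2 differences of -0.24 to 0.82 with Cnp loss and of -0.18 to 0.02 with 5xFAD. Within homeostatic microglia Itgav, Itgb5, Pros1 and Gas6 had differences of -0.60 to 0.17 and of -0.08 to 0.57.

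Megf10 over all microglia was at 16.4 and 0 CPM in WT, 66.0 and 47.8 CPM in Cnp-/-, 41.7 and 37.0 CPM in 5xFAD, and 54.1 and 81.2 CPM in Cnp-/-;5xFAD. Both WT libraries were lowest, and the log2 difference with Cnp loss was 1.57 ± 0.463 (SE, adjusted p = 0.158, edgeR) and with 5xFAD 0.98 ± 0.468 (SE, adjusted p = 0.525, edgeR). Over the alternatives these differences ran from 1.17 to 4.23 and from 0.29 to 3.65. MyTE nuclei numbered 11 and 3 in WT and 20 to 59 in the other libraries, and the oligodendrocyte markers over all microglia summed to 1209 and 963 CPM in WT and to 1736 to 4212 CPM in the others. Their part in this difference was not tested.

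In astrocytes none of the receptors passed the test. Axl stayed within 54.2 and 69.7 CPM, with log2 differences of -0.07 ± 0.108 (SE) for Cnp loss and -0.17 ± 0.108 (SE) for 5xFAD. Mertk ranged from 983 CPM in WT replicate 1 to 1681 CPM in Cnp-/- replicate 1, with differences of 0.06 ± 0.167 and -0.17 ± 0.167 (SE). Mfge8 was at 184 and 244 CPM in WT, 139 and 199 CPM in Cnp-/-, 170 and 164 CPM in 5xFAD and 126 and 163 CPM in Cnp-/-;5xFAD, with differences of -0.28 ± 0.160 and -0.31 ± 0.160 (SE). Itgav, Itgb5, Gas6, Pros1 and Megf10 had differences of -0.15 to 0.29 and of -0.21 to 0.06, and Tyro3, on 75 UMIs, of -1.66 ± 0.637 and 0.96 ± 0.636 (SE). No adjusted p of the 9 genes in astrocytes was below 0.912 (edgeR).

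In mature oligodendrocytes the log2 differences for Cnp loss were 0.27 ± 0.146 (SE) for Tyro3 and -0.08 ± 0.136 (SE) for Megf10, and neither passed the test. Itgav and Itgb5 differed by 0.08 ± 0.154 and -0.74 ± 0.329 (SE) with Cnp loss. With 5xFAD Itgav, Itgb5, Tyro3 and Megf10 differed by -0.33 to 0.27, and Pros1, whose levels follow, did not pass either (adjusted p = 1.00, edgeR). Pros1 was at 0.863 and 3.17 CPM in WT, 32.9 and 4.88 CPM in Cnp-/-, 8.88 and 15.7 CPM in 5xFAD and 10.7 and 43.1 CPM in Cnp-/-;5xFAD, and its log2 difference with Cnp loss was 2.25 ± 0.828 (SE, adjusted p = 0.319, edgeR). In endothelial cells the 9 genes differed by -0.60 (Tyro3) to 0.17 (Itgav) on the log2 scale with Cnp loss and by -0.51 (Mfge8) to 0.11 (Megf10) with 5xFAD. In precursors the 8 genes tested, all but Itgb5, differed by -0.25 (Tyro3) to 0.18 (Gas6) and by -0.92 (Mfge8) to 0.75 (Tyro3). Tyro3 had no UMI in 2 precursor profiles, and over the alternatives its differences ran from -2.96 to 3.04 and from 0.13 to 4.04. The lowest adjusted p in these types was 0.691. In pericytes Axl, Mertk, Itgav and Itgb5 had enough counts to be tested. Axl differed by 0.96 ± 0.661 and 0.78 ± 0.649 (SE) and the 3 others by -0.25 to 0.27, and their lowest adjusted p was 0.824 (edgeR). Newly formed oligodendrocytes and macrophages were not tested by genotype.

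In neurons Mfge8 was at 3.71 and 5.50 CPM in WT and 1.28 and 2.84 CPM in Cnp-/-, but at 0.560 and 0.911 CPM in 5xFAD and 0.679 and 0.295 CPM in Cnp-/-;5xFAD. Megf10 was at 10.9 and 17.1, 8.31 and 11.8, 5.92 and 7.31, and 7.25 and 5.45 CPM in the same order. For both genes the 5xFAD and Cnp-/-;5xFAD libraries lay below all others. The log2 differences with 5xFAD were -2.34 ± 0.370 and -0.85 ± 0.188 (SE), which did not pass edgeR's test (adjusted p = 0.280 each) but were called by DESeq2 (2.92e-06 and 0.00317), which called 2.34% of all genes there. The 6 astrocyte markers in neurons summed to 340 and 330 CPM in WT, 278 and 360 CPM in Cnp-/-, 238 and 260 CPM in 5xFAD and 311 and 270 CPM in Cnp-/-;5xFAD, and their part in these differences was not tested. Mertk in neurons had a log2 difference of -0.66 ± 0.210 (SE, adjusted p = 0.322, edgeR) with 5xFAD. Axl, Itgav, Itgb5, Gas6 and Pros1 differed by -0.42 to 0.34. With Cnp loss the 9 genes in neurons differed by -0.81 (Mfge8) to 0.16 (Tyro3), with a lowest adjusted p of 0.583 (edgeR). Tyro3 stayed within 52.1 and 62.3 CPM in neurons. Over all cell types the interactions ran from -2.07 (Axl in microglia) to 1.63 (Tyro3 in precursors), and the lowest adjusted p was that of Axl. The interaction of Tyro3 in precursors was unstable, at -4.95 to 7.05 over the alternatives.

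Within each DAM state the combined mutant was compared with the single mutant that shares the state, with 2 libraries against 2. Of 6 genes tested none was called in amyloid-DAM or in myelin-DAM by edgeR or DESeq2, none had an unadjusted p under 0.05, and 0.0% of all genes passed in either. Axl was at 203 and 207 CPM in amyloid-DAM of Cnp-/-;5xFAD against 203 and 134 CPM in 5xFAD, a log2 difference of 0.25 ± 0.268 (SE). In myelin-DAM both Cnp-/-;5xFAD libraries, at 373 and 319 CPM, were above both Cnp-/- libraries, at 234 and 212 CPM, with a difference of 0.64 ± 0.325 (SE, adjusted p = 0.810, edgeR). Mertk differed by 0.05 ± 0.138 and 0.02 ± 0.165 (SE). Itgav, Itgb5, Gas6 and Pros1 differed by -0.18 to 0.25 in amyloid-DAM and by -0.35 to 1.51 in myelin-DAM. Of the pathway lists, Edil3 was the 1 gene of 52 tested in microglia that passed with Cnp loss, at 0.67 ± 0.126 (SE, adjusted p = 0.0331, edgeR). That is a share of 1.92%, near the 1.59% of all genes called there. Its UMIs lay almost wholly in MyTE, with 83 of 86 and 38 of 38 in the WT libraries. MyTE nuclei were fewest in WT, as given above for Megf10, and their part in this difference was not tested. Without MyTE nuclei Edil3 did not pass the filter on low counts.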

How the data were processed

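Nuclei of 8 libraries, 2 for each of 4 genotypes, were profiled by droplet sequencing of RNA. The deposited tables hold raw UMI counts per gene and nucleus, which the authors made with Cell Ranger 6.1.2 on mm10, CellBender (removal of background RNA) and Seurat. Nuclei with few genes or transcripts and clusters of undefined identity had been removed before deposit. Intron and strand settings and the handling of doublets are not given in the sources used here, and no doublet caller was run. Cell types and microglial subpopulations are those that the authors deposited, and samples were grouped by the genotype in the labels.

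Counts were summed per library and cell type or subpopulation, keeping sums of at least 20 nuclei, and given as CPM of all UMIs. Tests used edgeR 4.0.16 (quasi-likelihood, TMM, default filter on low counts, Benjamini-Hochberg adjustment over all tested genes, threshold 0.05) with limma 3.58.1 in R 4.3.3. The library was a term between subpopulations, and Cnp loss, 5xFAD and their interaction were the terms between genotypes. DESeq2 1.42.0, its size factors, no filter, profiles of at least 5 nuclei, nuclei with at least 1000 UMIs, other terms and each library left out were alternatives. Shares of nuclei used Wilson intervals at 95%, which cover counting error, and nuclei thinned to 757 UMIs. The fits were tested on simulated data with 200 changed genes. Levels and shares were computed in Python 3.11.15. Promoter sequences came from RefSeq and were matched by symbol for 8 of the 9 genes; Megf10 was not among them.

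The 9 genes, the pathway lists and the markers were chosen with earlier results of these data known. The rule was to name all 9 genes in every comparison where they were tested, and those that did not pass are given partly as ranges or counts, with up to 3 pathway genes per comparison, those of the largest absolute log2 fold change past the threshold, and the 3 genes most alike in profile. Clec7a was not analysed here. A gene of the microglia markers and a gene of the oligodendrocyte markers are not reported here and were left out of the marker sums.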

Additional observations from a re-analysis of the deposited data

Results flagged for a closer look

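In 119 groups of 4 to 8 libraries, 12 had a library at the top or bottom that stood apart from the rest by Dixon's criterion, where chance gives about 5%. Of these, 7 rested on 1 to 4 UMIs. They were Axl in mature oligodendrocytes of Cnp-/- replicate 2 (2.44 CPM, next 1.12), Gas6 in pericytes of WT replicate 1 (91.8 CPM, next 35.8), Megf10 in homeostatic microglia of Cnp-/- replicate 2 (49.5 CPM, next 8.11) and in macrophages of Cnp-/-;5xFAD replicate 2 (85.3 CPM, next 18.6). Single UMIs made up Megf10 in pericytes of 5xFAD replicate 2 (15.2 CPM), Mfge8 in MyTE of 5xFAD replicate 2 (10 CPM) and Mfge8 in myelin-DAM of Cnp-/-;5xFAD replicate 1 (10.4 CPM), all other libraries being at 0.

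The remaining 5 rested on more UMIs. Axl in amyloid-DAM was lowest in 5xFAD replicate 2, at 134 CPM against 203 in the next library, on 24 UMIs. Itgav in myelin-DAM was highest in Cnp-/- replicate 1, at 409 CPM against 297. Cnp-/- replicate 2 was lowest for Itgav in precursors, at 203 CPM against 243, and for Itgb5 in astrocytes, at 106 CPM against 127. Mfge8 in endothelial cells was highest in WT replicate 2, at 177 CPM against 98.4.

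Of 73 pairs of gene and cell type, 2 had Cnp loss moving every library one way without 5xFAD and the other way with it. With 2 libraries against 2, chance alone also gives such pairs, and the number to be expected was not computed. Gas6 in endothelial cells was 33.1 CPM higher in Cnp-/- than in WT, while the same contrast on the 5xFAD background was -17.2 CPM. Its interaction of -0.63 did not pass edgeR's test (adjusted p = 0.738). Megf10 in newly formed oligodendrocytes differed by -39.1 CPM without and 11.3 CPM with 5xFAD, and this difference was not tested.

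Mfge8 was at 48 CPM, on 42 UMIs, in the 181 nuclei annotated as microglia that are not in the microglia table, where its highest profile was at 10.4 CPM. The same nuclei held oligodendrocyte markers at 3264 CPM, microglia markers at 1302 CPM, neuron markers at 1643 CPM, astrocyte markers at 1222 CPM and pericyte markers at 803 CPM, and the part of these in the Mfge8 level was not tested.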

How the results depend on the processing

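No called result turned its direction under the alternatives run. The 3 calls in amyloid-DAM, 1 of them Axl, for which no p is given, were 1 to 3 with a library left out. They were at 1 without either Cnp-/-;5xFAD library. The 0 calls by genotype became 2 without a filter on low counts, 4 by DESeq2, and 0 to 1 with a library left out, the 1 without WT replicate 1 being Mfge8 with 5xFAD in endothelial cells (-0.77, adjusted p = 0.0297, edgeR). Thinning lowered the share of nuclei with an Axl UMI to 2.55% in homeostatic microglia, 11.8% in amyloid-DAM and 19.1% in myelin-DAM. Mertk was called in myelin-DAM in 15 of 15 alternatives and in amyloid-DAM in 13, and Itgb5 in amyloid-DAM in 10. The log2 fold change of Axl ran from 1.75 to 2.39 in amyloid-DAM and from 2.48 to 2.92 in myelin-DAM. Itgb5 was also lost without the filter (adjusted p = 0.150) and with profiles of at least 5 nuclei (0.0513). The MyTE call of Gas6 held in 5 of 14 alternatives, and Itgav, not called in MyTE in the main fit, was called lower in 4 of 14. The cause of these changes was not tested.

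Replicate numbers did not mark pairs, since deviations of libraries with the same number correlated from -0.203 to 0.189. With the replicate block the genotype fits had 0 calls, and in place of the library term it gave 3, 2, 0 and 5 calls in amyloid-DAM, myelin-DAM, between them and in macrophages. In MyTE the block lost Gas6 (adjusted p = 0.0551) and gained Itgav (0.0418).

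With 2 libraries per genotype and few microglial UMIs in WT, depth limits Axl in WT microglia (5 and 0 UMIs), Gas6 in myelin-DAM and the genes in pericytes, among others.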
